A study of Rattus norvegicus with 20 samples.

Results

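The comparison was between 5 nucleus accumbens libraries from rats given a low-iron diet and 5 from rats given the standard diet, which are 10 of the 20 libraries in the series. They were chosen by region and diet as labelled, and every accession that passed a filter on low counts was tested. The animals were male Fischer344/Jcl rats, an inbred strain. Both groups ate a purified AIN-93G diet, which in the treated group was the low-iron version, from day 21 to day 39 of age, and tissue was collected at 13 weeks. The labels name no transgene or other treatment, and they do not say that each library was a separate animal, so the spread behind each p-value may be technical in part. The other 10 libraries came from prefrontal cortex, and those on the standard diet were used here as a reference for cortical levels.

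The nucleus accumbens is the ventral part of the striatum, where most neurons are GABAergic projection neurons that carry D1 or D2 dopamine receptors and receive glutamatergic input from the cortex. Iron is a cofactor of tyrosine hydroxylase, of the heme and iron-sulfur proteins of the respiratory chain, and of dioxygenases that modify histones and nucleic acids. Reelin is a secreted glycoprotein that binds lipoprotein receptors such as the one encoded by Vldlr and acts through the adaptor Dab1 and Src-family kinases. It steers neuronal migration in development and modulates synapses in the adult brain.

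The striatal label was checked on defining markers. Ppp1r1b, which encodes the dopamine-regulated phosphoprotein DARPP-32, lay between 1212 and 2317 CPM (assigned reads scaled to a common library size) in the 10 libraries, against a mean of 108 CPM in standard-diet cortex. Drd1 lay between 322 and 504 CPM and Drd2 between 150 and 277 CPM, against 15.2 and 9.71 CPM in cortex. One library stood apart from the other 9. Standard-diet replicate 4 held Slc17a7, the vesicular glutamate transporter gene of cortical projection neurons, at 325 CPM, where the other libraries lay between 1.89 and 18.1 CPM, so results that turn on it are given with and without it. Sequencing depth also differed with diet. Assigned reads were 7.19 ± 1.35 M in the standard-diet libraries and 5.13 ± 0.696 M in the low-iron ones (SD, n = 5; exact two-sided permutation p = 0.0238, or 0.0417 adjusted over 7 library measures). All reads (16.9 M and 12.4 M) had the same adjusted p. So did the share of ambiguous reads (3.86% and 3.71%) and the accessions detected (13509 and 13281). The other measures had an adjusted permutation p of at least 0.122, among them reads in no feature (41.4% and 42.7%). Replicate 4, at 5.48 M, was the only standard-diet library within the low-iron range of 4.34 to 5.93 M, and without it depth separated the diets completely.

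Across all genes, edgeR passed 0 of 11202 accessions (0%) at an adjusted p under 0.05. DESeq2 passed 1 of 14787 (0.00676%), which was Reln. At an unadjusted p under 0.05 edgeR held 454 accessions (4.05%), of which 217 were higher with the low-iron diet (1.94%) and 237 lower (2.12%). The diets did not overlap for 102 accessions (0.911%), 57 of them higher (0.509%) and 45 lower (0.402%). Without standard-diet replicate 4, edgeR again passed 0, now of 11281, and 389 accessions had an unadjusted p under 0.05 (3.45%). Every fold change below is on a log2 scale as low-iron minus standard diet, with its standard error (SE), and every edgeR adjusted p for the genes named was at least 0.972, so none of them is described as changed on that test.

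Reln was the gene with the lowest p among those lower with the low-iron diet. It stood at 36.4, 29.5, 41.2, 54.7 and 34.0 CPM in standard-diet replicates 1 to 5. In low-iron replicates 1 to 5 it stood at 18.7, 25.5, 18.0, 25.4 and 15.0 CPM. The diets did not overlap, and standard-diet replicate 4 was the highest of the 10 libraries. These levels rested on 233 to 322 reads per standard-diet library and 65 to 151 reads per low-iron library. The difference was -0.90 (SE 0.19), or 0.534-fold (95% interval 0.403 to 0.708), with an unadjusted edgeR p of 0.000437, an adjusted p of 0.972 and an exact permutation p of 0.00794. The permutation p is the lowest possible for 5 libraries against 5, and each of the 102 genes whose diets did not overlap reaches it. Reln was chosen with its result known, so its p-values are a description. DESeq2 gave an adjusted p of 0.00525, and the authors' deposited table lists Reln at -0.92 with an adjusted p of 0.00512, the 1 accession of 14030 under 0.05 there. Its gene start in the RefSeq assembly GRCr8 is preceded by the following 250 bases on the + strand of chr4:13628318-13628567, shown with CG dinucleotides in capitals because Reln is the gene the comparison turns on. The window holds 41 CG, more than 97.8% of the 9069 promoters of tested genes, whose median is 16. CG content is a property of the reference, and methylation was not measured.
Reln: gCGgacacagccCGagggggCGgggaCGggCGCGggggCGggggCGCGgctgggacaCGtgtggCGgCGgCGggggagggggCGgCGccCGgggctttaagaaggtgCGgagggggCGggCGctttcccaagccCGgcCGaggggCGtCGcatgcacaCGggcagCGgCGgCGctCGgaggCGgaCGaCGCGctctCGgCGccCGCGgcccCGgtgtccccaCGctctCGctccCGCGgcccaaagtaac

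**Figure D1:**
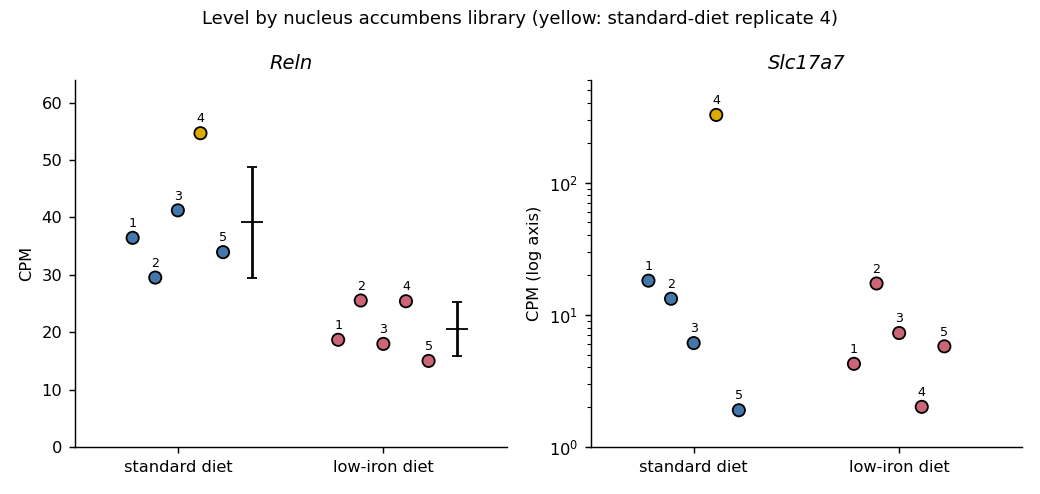
Level of Reln (left, CPM) and Slc17a7 (right, CPM on a log axis) in each nucleus accumbens library, numbered by replicate, with standard-diet replicate 4 in yellow and the mean ± SD (n = 5) of Reln beside its points. For Reln the lowest standard-diet library, replicate 2 at 29.5 CPM, lies above the highest low-iron library, at 25.5 CPM. Slc17a7 stands at 325 CPM in replicate 4 alone.

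Leaving out standard-diet replicate 4 reduced the size of the Reln difference. It could not change the separation of the diets, since replicate 4 was the highest library. The other 4 standard-diet libraries averaged 35.3 ± 4.89 CPM (SD, n = 4), against 20.5 ± 4.72 CPM in the 5 low-iron libraries. The difference became -0.76 with an unadjusted edgeR p of 0.000201, the lowest of all accessions in that fit, and an adjusted p of 0.995. An exact permutation test gave p = 0.00794, which is the minimum for 5 libraries against 4 and follows in part from that separation. Without low-iron replicate 5, where the diets were also separated, the exact permutation p was 0.0159. With DESeq2 the adjusted p was 0.0272 without replicate 4. The call did depend on other libraries, since DESeq2 gave an adjusted p of 0.0535 when standard-diet replicate 3 was omitted, 0.0825 when low-iron replicate 1 was and 0.0792 when low-iron replicate 5 was. With the level of cortical markers as a covariate the difference was -0.79 with the lowest p of all accessions. With assigned reads as a covariate it was -1.07, with an unadjusted p of 0.00215 that ranked 53. Its rank was 13 without low-iron replicate 3 and between 1 and 5 without each of the other 9 libraries. In replicate 4 Reln exceeded the median of the other standard-diet libraries by 19.5 CPM, which is 7.88% of its mean of 247 CPM in standard-diet cortex. The same excess was 19.2% of the cortical level for Slc17a7 and 30.9% for Tbr1, a transcription factor gene of deep-layer cortical neurons. The part of these cortical markers in the Reln level of replicate 4 was not tested.

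Other genes of the reelin pathway lay on both sides of 0. Of 21 measured accessions in the list of reelin, its receptor, adaptors and effectors, 7 lay above 0 and 14 below, with a median of -0.02, against 50.8% above 0, 49.2% below and a median of 0.0018 over all genes. Vldlr, the receptor gene, stood at 55.4, 51.1, 63.7, 61.3 and 52.7 CPM with the standard diet and at 52.1, 53.1, 48.9, 54.6 and 47.7 CPM with the low-iron diet, a difference of -0.14 (SE 0.07) with overlapping groups. Dab1 ranged from 24.2 to 34.5 CPM with the standard diet, where replicate 4 was the highest, and from 18.3 to 29.7 CPM with the low-iron diet. Its difference of -0.12 (SE 0.13) was -0.04 without replicate 4. Crk, another adaptor gene, was at -0.16, and the microtubule-associated gene Dcx, which marks young neurons, was at 0.16. No other member had an unadjusted p under 0.05, among them the downstream kinase gene Gsk3b at -0.09.

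Of the 10 genes with the lowest p in the lower direction, the largest difference was that of Wnt9a, which encodes a secreted Wnt ligand. It stood at 3.51, 2.72, 3.13, 4.95 and 2.33 CPM with the standard diet and at 1.11, 1.69, 1.82, 1.46 and 1.15 CPM with the low-iron diet. The groups did not overlap, but the low-iron values rested on 5 to 10 reads each. Its difference was -1.17 (SE 0.26), and -1.01 without replicate 4, which was again the highest library. The Wnt list as a whole, Wnt9a included, had 24 of 37 accessions above 0 and a median of 0.04.

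The other genes of this group differed by less and were tighter between libraries. Map1lc3a, whose product is the LC3A protein of autophagosome membranes, lay between 168 and 174 CPM in the 5 standard-diet libraries and between 144 and 160 CPM in the low-iron ones, a difference of -0.19 (SE 0.05). Its list of ATG8 family and autophagy genes had 13 of 22 accessions below 0 and a median of -0.03. Hint1, a nucleotide hydrolase gene, was at -0.24, Ap2s1, a clathrin adaptor subunit gene, at -0.19, and Selenom, a selenoprotein gene, at -0.22. F8a1 was at -0.26, Rita1 at -0.24 and the rhomboid-like gene Rhbdf1 at -0.44. The groups overlapped for Rhbdf1 and did not for the other genes just named, where 0.911% of all accessions did not overlap. This follows in part from their choice by a low p in the same libraries. Hbb, a beta-globin gene with near-identical copies that may share its reads, was at 127, 114, 109, 119 and 120 CPM with the standard diet and 102, 105, 108, 85.1 and 96.4 CPM with the low-iron diet, a difference of -0.25 (SE 0.07). Only 1 other gene of the red cell list was tested, the erythroid heme synthesis gene Alas2, at 0.06.

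Of the genes higher with the low-iron diet, Gk had the lowest p of all accessions in the comparison. It encodes glycerol kinase, which feeds glycerol into lipid and energy metabolism. Its level was 27.3, 27.7, 28.4, 29.7 and 28.1 CPM with the standard diet and 37.5, 34.5, 33.2, 37.1 and 35.5 CPM with the low-iron diet. The gap between the groups was wider than the range within the standard diet, and the difference was 0.34 (SE 0.07), or 0.35 without replicate 4. In the authors' deposited table Gk is listed with an adjusted p of 0.643. Dse, a dermatan sulfate epimerase gene, was at 0.43, the HMG-box transcription factor gene Tox at 0.33, Xkr6 at 0.31, the palmitoyltransferase gene Zdhhc13 at 0.28 and the non-coding LOC100911367 at 0.29. The polycystin-2 gene Pkd2 was at 0.25, the ubiquitin ligase gene Ube3a at 0.22, the deubiquitinase gene Usp46 at 0.17 and the histone chaperone gene Nap1l1 at 0.17. Only Pkd2 among these 10 overlapped between diets, where 0.911% of all accessions did not overlap. Without replicate 4 these 10 lay between 0.15 and 0.40. Each kept its sign, as did all 454 accessions at an unadjusted p under 0.05. With assigned reads as a covariate the 10 lay between 0.09 for Ube3a and 0.50 for Dse. The separation and the kept signs follow in part from their choice by a low p in the same libraries.

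**Figure D2:**
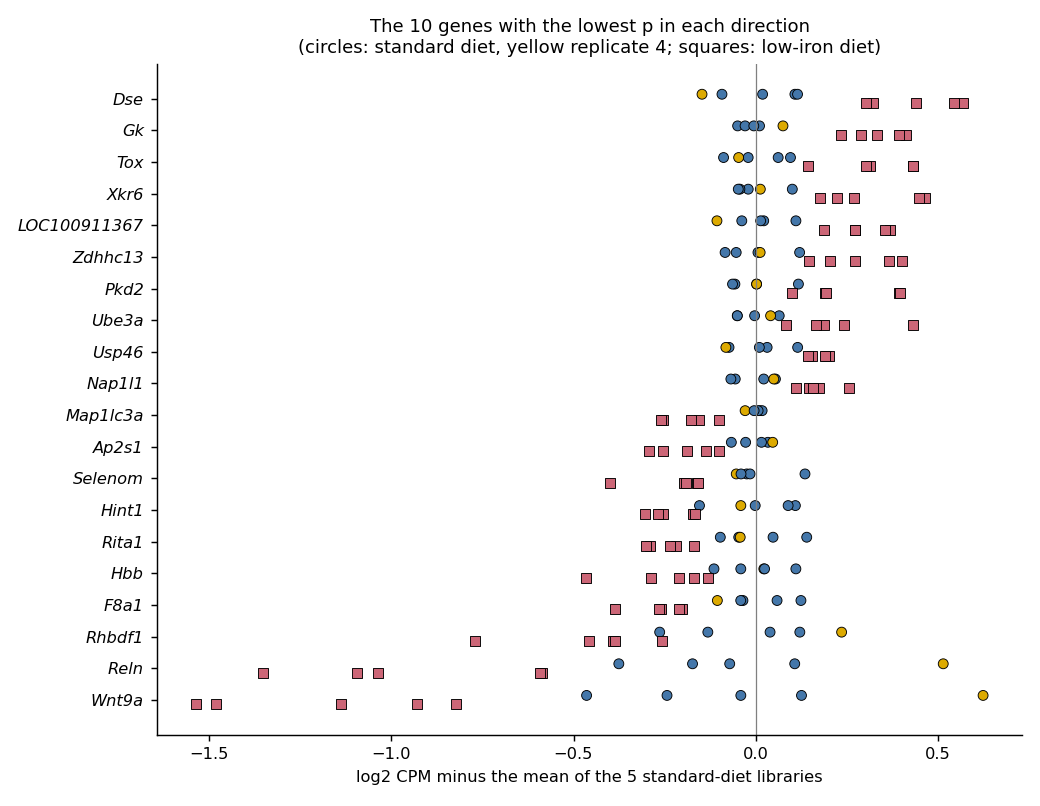
Log2 CPM of each library minus the mean of the 5 standard-diet libraries for the 10 genes with the lowest p in each direction, with circles for the standard diet (yellow, replicate 4) and squares for the low-iron diet. Replicate 4 is the highest library for Reln, at 54.7 CPM, Wnt9a, at 4.95 CPM, Ap2s1, at 107 CPM, and Rhbdf1, at 18.5 CPM. It is the highest standard-diet library for Gk and the lowest for Map1lc3a, F8a1, Selenom, Dse, LOC100911367 and Usp46. For the remaining genes it lies within the range of the other standard-diet libraries.

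Genes of oxidative phosphorylation shared 1 direction in small steps. Over the 74 nuclear accessions for complexes I to V, 69 lay below 0 (93.2%, against 49.2% of all genes), with a median of -0.07. The lowest value was -0.19, and 9 had an unadjusted p under 0.05 in the lower direction (12.2%, against 2.12% of all genes). Complex I, the NADH dehydrogenase that holds most of the iron-sulfur clusters, had 31 of 34 below 0 and a median of -0.06. Complex II had 4 of 4 below 0, complex III 7 of 9, complex IV, the cytochrome oxidase, 12 of 12, and ATP synthase, which carries no iron, 15 of 15. The medians of complex IV and ATP synthase were both -0.09. Ndufb8, a complex I subunit gene, lay between 176 and 184 CPM with the standard diet and between 151 and 174 CPM with the low-iron diet, a difference of -0.14 (SE 0.05) with no overlap. Atp5me was at -0.19 (SE 0.06), Cox5b at -0.14 (SE 0.06) and Sdhc at -0.13. The mean of the 74 lay 0.15 below the standard-diet mean in low-iron replicate 1 and 0.01 above it in low-iron replicate 3, so the 5 low-iron libraries were not alike.

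These values did not turn on standard-diet replicate 4. Without it 69 of the 74 again lay below 0 (all genes, 49.4%), with a median of -0.08. With any 1 library left out the median lay between -0.09 and -0.06, and with assigned reads as a covariate it was -0.10 with 60 of 74 below 0 (all genes, 50.1%). Direction also moved with the length of the gene. When accessions were divided into 5 equal bins by genomic span in GRCr8, 40.0% of the shortest bin (up to 8.12 kb) lay above 0 and 4.38% had an unadjusted p under 0.05 in the lower direction. In the longest bin (from 73.8 kb) 56.7% lay above 0 and 1.18% were lower at that threshold. The 74 accessions had a median span of 7.17 kb. The part of gene length in their direction was not tested.

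Promoters of the respiratory chain and ATP synthase genes were searched for the binding motif of NRF1. This transcription factor is known to act on respiratory chain genes. Its 10-base consensus, on either strand, lay within 250 bases before the start in 11 of 65 matched promoters (16.9%), against 825 of 9069 for all tested genes (9.10%). A match is a description of the sequence, and binding was not measured. The part of the motif in the diet difference was not tested. The 11 genes were Atp5me, Ndufa12, Atp5po, Ndufv3, Atp5mc2, Uqcrc1, Ndufa11, Sdha, Ndufs5, Ndufs6 and Ndufa5. The sequences of Atp5me (chr14:1464610-1464859, + strand), the ATP synthase gene with the lowest p, and Ndufa12 (chr7:30658066-30658315, + strand), a complex I gene at -0.14, are given with the motif in capitals, in RefSeq GRCr8.
Atp5me: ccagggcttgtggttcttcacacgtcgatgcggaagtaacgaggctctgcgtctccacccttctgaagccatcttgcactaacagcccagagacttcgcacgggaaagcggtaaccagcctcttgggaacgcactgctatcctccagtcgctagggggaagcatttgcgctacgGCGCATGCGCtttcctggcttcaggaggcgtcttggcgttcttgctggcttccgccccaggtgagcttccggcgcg
Ndufa12: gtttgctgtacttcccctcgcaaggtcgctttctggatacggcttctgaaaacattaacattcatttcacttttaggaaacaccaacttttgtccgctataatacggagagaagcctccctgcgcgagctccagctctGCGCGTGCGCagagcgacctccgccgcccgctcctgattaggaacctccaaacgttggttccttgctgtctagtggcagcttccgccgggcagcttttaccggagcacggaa

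Other lists of housekeeping and mitochondrial genes leaned the same way. Mitochondrial ribosomal proteins had 40 of 64 accessions below 0 (median -0.05), and Mrps28 was at -0.51 (SE 0.15), with 8.62 to 11.2 CPM on the standard diet and 5.30 to 8.41 CPM on the low-iron diet. Cytosolic ribosomal proteins had 64 of 74 below 0 with a median of -0.05. Their summary by library was not uniform, at -0.20 in low-iron replicate 1 and 0.14 in low-iron replicate 3. The mitochondrial and cytosolic ribosomal lists had median spans of 6.09 and 3.13 kb, and 37.5% and 13.5% of their accessions lay above 0. In the shortest bin of all genes (up to 8.12 kb) 40.0% did. The part of gene length in these lists was not tested. Proteasome subunits had 29 of 36 below 0 (median -0.04), of which Psmb4 was at -0.12. With assigned reads as a covariate the proteasome list was split, 18 to 18, with a median of -0.0055. Glycolysis enzymes had 12 of 14 below 0 and a median of -0.08. Their mean lay between -0.10 and -0.04 in the low-iron libraries and between -0.01 and 0.01 in the standard-diet libraries, without overlap. The share of all lists that separate in this way was not counted. With assigned reads as a covariate 9 of the 14 lay below 0 (all genes, 50.1%), and the median was -0.09. Gapdh, the glyceraldehyde phosphate dehydrogenase gene, ranged from 668 to 720 CPM with the standard diet and from 634 to 672 CPM with the low-iron diet, a difference of -0.11 (SE 0.05). In the glutathione and peroxiredoxin list 17 of 25 lay below 0, with the thioredoxin gene Txn1 at -0.22, Prdx5 at -0.12 and Sod1 at -0.10.

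Cholesterol synthesis was the metabolic list with the largest median. Of 22 accessions 20 lay below 0, with a median of -0.15 and 5 at an unadjusted p under 0.05, all lower. Over all genes 49.2% lay below 0 and 2.12% were lower at that threshold. Among them were the sterol dehydrogenase gene Nsdhl, with a mean of 28.5 CPM on the standard diet and 24.4 CPM on the low-iron diet (-0.22), the farnesyl diphosphate synthase gene Fdps, with means of 81.6 and 72.2 CPM (-0.17), and the phosphomevalonate kinase gene Pmvk, with means of 47.3 and 40.9 CPM (-0.21). The diets overlapped for each of these enzymes, and without replicate 4 they stood at -0.22, -0.18 and -0.20. The list mean was 0.18 in standard-diet replicate 3 and -0.23 in standard-diet replicate 2, as low as the lowest low-iron library, so the spread within the standard diet was wide. The median was -0.14 without replicate 4, and between -0.21 and -0.11 over the 10 fits that each left 1 library out. With assigned reads as a covariate it was -0.27. Myelin and oligodendrocyte markers, a cell type rich in these enzymes, had 14 of 15 accessions below 0 with a median of -0.07. Without replicate 4 only 8 of the 15 lay below 0 and the median was -0.02. It was -0.15 without standard-diet replicate 2, near 0 (-0.0055) without standard-diet replicate 3 and -0.32 with assigned reads as a covariate. In bulk tissue, fewer cells of a type and less RNA per cell cannot be told apart.

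Iron genes themselves showed no shared direction. In the list of iron uptake, sensing, storage and export, 8 of 18 accessions lay above 0 and 10 below, with a median of -0.01. Fbxl5, which encodes the iron-sensing ubiquitin ligase subunit that controls IRP2, averaged 115 ± 5.24 CPM with the standard diet and 125 ± 5.31 CPM with the low-iron diet (SD, n = 5), a difference of 0.12 (SE 0.05) with overlap. Its target Ireb2, the gene of IRP2, was at 0.09. The transferrin receptor gene Tfrc was at 0.18, the ferritin genes Fth1 and Ftl1 at -0.03 and -0.08, transferrin (Tf) at -0.16, and Slc40a1, which encodes the exporter ferroportin, at -0.14. Heme genes had 10 of 16 below 0 (median -0.03), with the synthesis genes Urod at -0.11 and Fech at 0.05. Iron-sulfur cluster assembly had 17 of 27 below 0 (median -0.02), and its scaffold gene Iscu was at -0.12, or -0.17 without replicate 4. Iron-dependent dioxygenases had 24 of 38 above 0 (median 0.02), and 20 of 38 without replicate 4 (median 0.01). Of this list the histone demethylase genes Kdm6b and Kdm3a were each at 0.15 and the RNA demethylase gene Alkbh5 at 0.19. Alkbh7 was at -0.21. The prolyl hydroxylase gene Egln3 was at -0.36, or -0.27 without replicate 4, its highest library. Hypoxia-inducible genes were split, 8 above 0 and 8 below.

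Dopamine and monoamine genes lay on both sides of 0. In that list 5 of 9 accessions lay above 0, near the 50.8% of all genes, with a median of 0.05. With assigned reads as a covariate 4 of 9 lay above 0 and the median was -0.02. The vesicular monoamine transporter gene Slc18a2 was at 12.1 to 15.5 CPM with the standard diet and 14.8 to 17.3 CPM with the low-iron diet, a difference of 0.22 (SE 0.10). The receptor genes Drd1, Drd2 and Drd3 were at 0.18, 0.11 and 0.18, and below 0 lay among others the monoamine oxidase gene Maoa and the tetrahydrobiopterin synthesis gene Pts, at -0.04 each. Markers of striatal projection neurons had 15 of 16 accessions above 0 with a median of 0.14, those of D1 neurons 5 of 6 and those of D2 neurons 7 of 7. Of the 7 D2 markers 0 had an unadjusted p under 0.05, and of the 6 D1 markers 1 did, Sfxn1 at 0.12, against 4.05% of all genes. The cAMP and G-protein list had 24 of 36 above 0, with the regulatory subunit gene Prkar2b at 0.19 and Gng3 at -0.15. AMPA and kainate receptor genes had 14 of 17 above 0 (median 0.09), with Grik2 at 0.17, and postsynaptic scaffold genes 18 of 24, with Dlg1 at 0.17. Release machinery genes went the other way, 25 of 38 below 0 with a median of -0.07, which became -0.02 without replicate 4.

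The level of projection neuron markers varied more between libraries of the same diet than between diets. The list mean, as log2 relative to the standard-diet mean, was 0.21, 0.39, -0.30, 0.01 and -0.31 in standard-diet replicates 1 to 5. In low-iron replicates 1 to 5 it was 0.32, 0.25, 0.25, -0.17 and 0.11. The lowest 3 libraries were standard-diet replicates 3 and 5 and low-iron replicate 4. The same 3 libraries had the highest mean of cholinergic neuron markers, at 0.76, 0.66 and 0.40. Ngfr, the p75 neurotrophin receptor gene of basal forebrain cholinergic neurons, stood at 43.2, 3.83, 70.3, 3.49 and 63.1 CPM with the standard diet and at 1.85, 16.2, 6.36, 39.3 and 6.0 CPM with the low-iron diet. Its difference was -1.36 (SE 0.98). Chat, the acetylcholine synthesis gene, lay between 26.2 and 74.4 CPM with the standard diet and between 24.6 and 55.9 CPM with the low-iron diet. The part of these marker levels in the signalling lists was not tested.

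**Figure D3:**
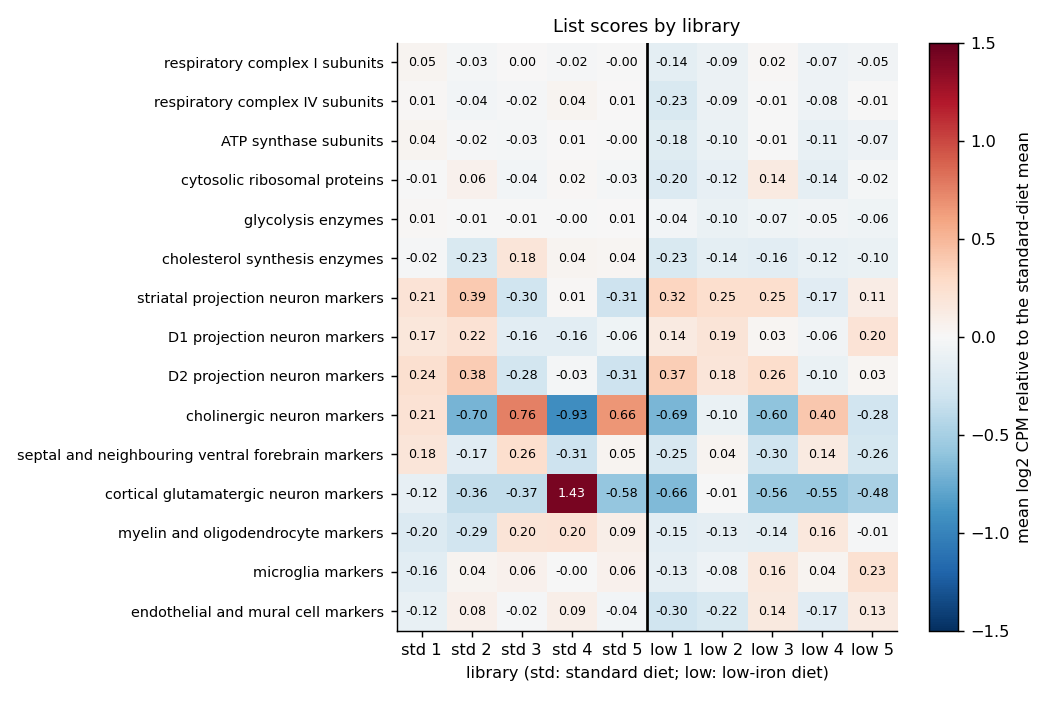
Mean log2 CPM of the members of 15 lists in each library, relative to the mean of the 5 standard-diet libraries, with the diets separated by a line. Cortical markers stand at 1.43 in standard-diet replicate 4 alone, while projection neuron and cholinergic markers run in opposite directions in standard-diet replicates 3 and 5 and low-iron replicate 4.

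Lists related to rhythm, stress and growth factors were described in the same way. Circadian clock genes had 10 of 17 accessions above 0 and a median of 0.09, or 0.05 without replicate 4, with Nr1d2 at 0.16 and Per3 at 0.14. The labels do not give the hour of collection. Glucocorticoid receptor and target genes had 13 of 15 above 0 and a median of 0.11, with Fkbp5 at 0.22, Klf9 at 0.20 and Nr3c1 at 0.08, although the list mean ran from -0.23 in low-iron replicate 5 to 0.27 in low-iron replicate 3. Immediate early genes had 14 of 21 above 0. In the neurotrophin and GDNF-family list 8 of 11 lay below 0, the lowest being Ngfr at -1.36. The mean of this list was lowest among standard-diet libraries in replicates 2 and 4 (-0.41 and -0.43) and among low-iron ones in replicate 1 (-0.55). The mean of the cholinergic markers, which also hold Ngfr, was lowest in the same libraries (-0.70, -0.93 and -0.69), and its part in this list was not tested. There Ret, the GDNF receptor kinase gene, stood at 4.75, 2.96, 6.55, 4.40 and 5.10 CPM with the standard diet and at 2.40, 3.72, 1.82, 3.11 and 2.54 CPM with the low-iron diet, a difference of -0.77 (SE 0.24) with overlap, and -0.79 without replicate 4. Htr1a, a serotonin receptor gene, was at -1.26 (SE 0.49) on levels of 0.909 to 6.55 CPM. Among guidance genes Sema7a was at -0.26 and Ntn1 at 0.23, in a list split 32 above 0 to 28 below. Without replicate 4 Sema7a was at -0.20 and Ntn1 at 0.17.

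Markers of other cell types pointed in different directions. Microglia markers had 11 of 14 accessions above 0 with a median of 0.05, and the fractalkine receptor gene Cx3cr1 was at 0.26 (SE 0.10). With assigned reads as a covariate 2 of 14 lay above 0 (all genes, 49.9%) and the median was -0.14. Endothelial and mural markers had 18 of 21 below 0 (median -0.08, or -0.31 with assigned reads as a covariate), and astrocyte markers were split, 5 above to 7 below. Low-iron replicates 1 and 2 had the lowest endothelial means, at -0.30 and -0.22, while low-iron replicates 3 and 5 had the highest, at 0.14 and 0.13.

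**Figure D4:**
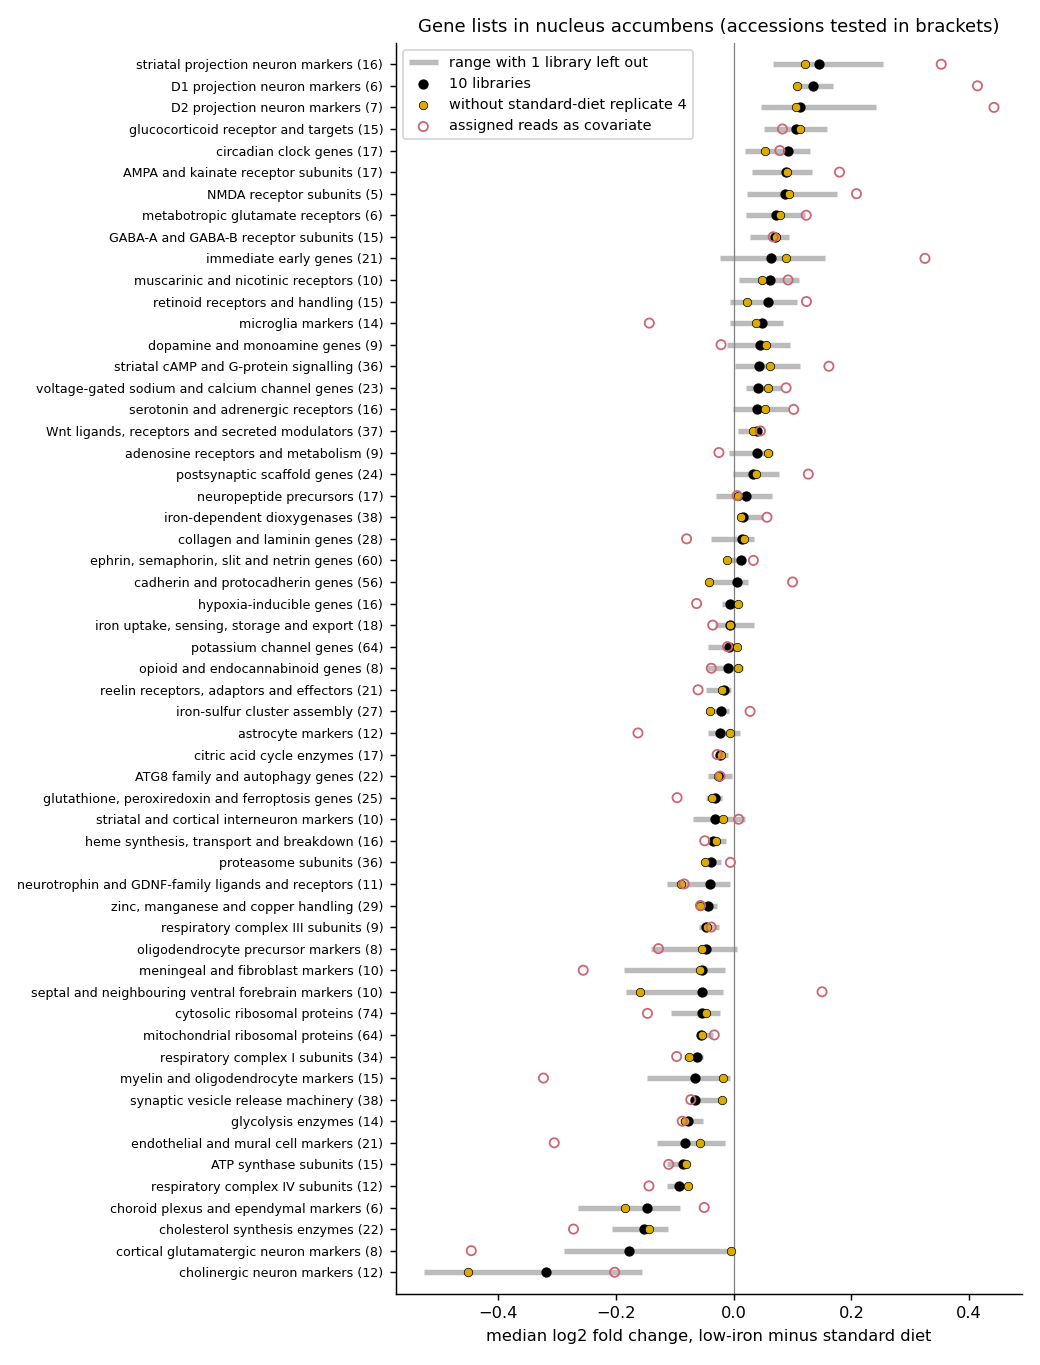
Median log2 fold change of each list with 10 libraries (black), without standard-diet replicate 4 (yellow) and with assigned reads as a covariate (open red), over the range of the fits that leave out 1 library (grey bar). Respiratory chain, glycolysis and cholesterol lists stay below 0 in all of these, and the cortical marker list moves from -0.18 to near 0 without replicate 4.

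The genes that set standard-diet replicate 4 apart were counted. Of 10011 accessions with a mean of at least 5 CPM, 29 were at least 1.5-fold higher in replicate 4 than in each of the other 9 libraries, and the same count was 0 or 1 for each other library. At 2-fold there were 9 in replicate 4, namely Slc17a7, Tbr1, Nrn1, Rprm, Scube1, Cck, Nptxr, Rasgef1c and Olfm1, and 0 in each other library. Of the 29, 28 were at least 2 times higher in standard-diet cortex than in the median of the other 9 accumbens libraries, with Ntng1, an axon guidance gene, as the exception. Their excess in replicate 4 had a median of 22.1% of the cortical level, from 4.44% for the neuropeptide gene Cck to Rprm, which stood at 32.3 CPM there against 22.4 CPM in cortex. As a share of the cortical level the excess varied from gene to gene, and its source was not tested. All 29 lay below 0 in the diet comparison, with a median of -0.41, and -0.12 without replicate 4. This follows in part from their choice, since each was picked for a high level in a standard-diet library. Of the 29 only Scube1 had an unadjusted p under 0.05, both with and without replicate 4, against 4.05% and 3.45% of all accessions. Slc17a7 stood at -3.21 (SE 1.56) with all 10 libraries and at -0.44 without replicate 4.

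Replicate 4 was also low among the standard-diet libraries for genes of basal forebrain cholinergic neurons, and without it these lay further below 0. Ngfr went from -1.36 to -1.63, the vesicular acetylcholine transporter gene Slc18a3 from -0.52 to -0.70 and Chat from -0.42 to -0.57. Slc18a3 had an unadjusted edgeR p of 0.030 in that fit, after 0.184 with all libraries. The cholinergic list median went from -0.32 to -0.45 and that of the septal list from -0.05 to -0.16. These shifts were not particular to replicate 4, since the cholinergic median was -0.16 without standard-diet replicate 3 and -0.53 without low-iron replicate 4, and the septal median was -0.18 without the latter. Of 57 lists with at least 5 accessions, the median changed sign without replicate 4 in 5, which were the hypoxia, opioid and endocannabinoid, potassium channel, guidance and cadherin lists. All 5 medians lay within 0.05 of 0 in both fits.

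**Figure D5:**
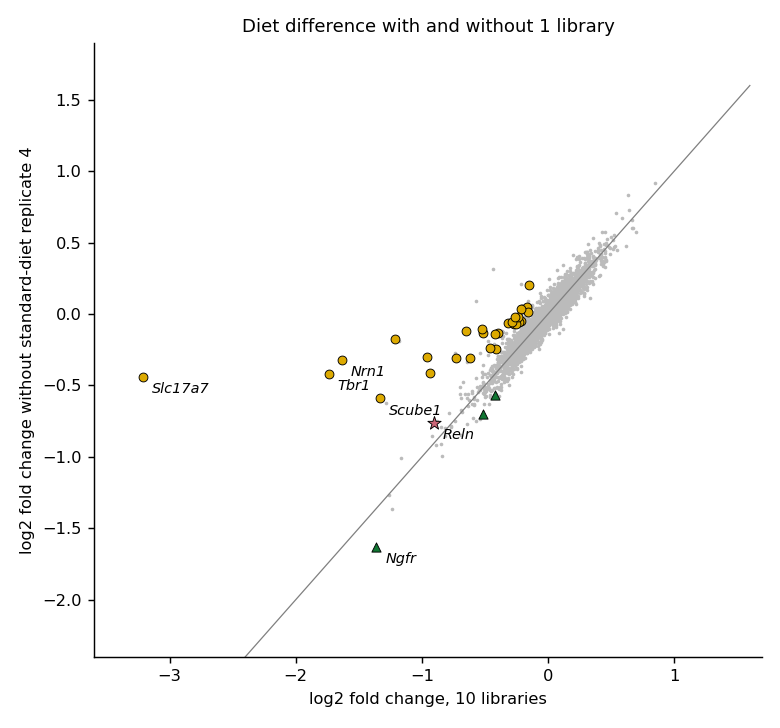
Log2 fold change of each accession with 10 libraries (horizontal) and without standard-diet replicate 4 (vertical), with the line of equality. The 29 accessions highest in replicate 4 (yellow) lie above the line, the cholinergic genes Ngfr, Slc18a3 and Chat (green triangles) below it, and Reln (red star) at -0.90 and -0.76. The place of the 29 follows in part from their choice by a high level in replicate 4.

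For most genes replicate 4 mattered no more than another library. The median absolute shift of the fold change without it was 0.0191, where the other 9 libraries gave 0.0189 to 0.0276. A shift over 0.3 was seen in 20 accessions, and in 4 to 26 for the other libraries, the most being for low-iron replicate 4. Of the 454 accessions at an unadjusted p under 0.05, 295 (65.0%) were also under it without replicate 4, which is 75.8% of the 389 found there, and 0 changed sign. The other libraries left between 256 and 354. The number at that threshold moved most without standard-diet replicate 2, to 842 (7.51%).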

How the data were processed

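Poly(A) RNA was measured in 10 nucleus accumbens libraries as 75 bp single reads on a NextSeq 500, from RNA with an integrity number above 8.3, per the labels' protocols. The authors deposited raw read counts for each of 18288 RefSeq accessions per library. Trimmomatic 0.36.3, HTSeq, STAR, DESeq2, DESeq and the build rn6 appear, without roles, in the submitters' processing notes. The authors' deposited table of this comparison also gives log2 fold changes and p-values, with a test statistic (score). It holds 17026 accessions, each with counts equal to those in the library files. The unstranded column was used; the strands took equal shares (49.6 to 50.0%), so antisense reads cannot be told apart. Reads assigned to no accession were left out (56.4 to 60.7% per library). A count of 0 allows up to 3 reads, or 0.339 to 0.691 CPM, and these floors cover counting error only. The interval given for Reln rests on the SE of the edgeR fit, so it also includes the spread between libraries.

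Transcripts of 1 gene are separate features, and reads shared by them were not counted. Of genes with 1 accession 65.4% could be tested, against 33.8% of those with 2 or more. Adora2a, Tac1 and Grin1 thus had 0 reads in all 10 libraries, and Oprm1 and Vegfa at most 1 per library, which says nothing of their expression. Symbols came from RefSeq for 17353 accessions and from the authors' table for 859, leaving 76 without one.

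Differences were fitted with edgeR 4.0.16 under R 4.3.3, by its quasi-likelihood method (TMM, filterByExpr minimum count 10, robust), diet as the only term, with Benjamini-Hochberg adjustment over all accessions tested. SE is the log2 difference over the root of the F statistic. DESeq2 1.42.0, limma 3.58.1 (voom with quality weights), other size factors and filters, accessions summed by symbol, covariates for depth and cortical markers, a replicate block and each library left out were alternatives. Leaving out libraries with DESeq2 was added after seeing the data. The model was tested on simulated data. Lists have no test. Named genes were the 10 lowest p in each direction, the lowest p of each list in each direction, reelin genes, cell type markers and the genes that moved most without standard-diet replicate 4; other list members were picked for their role after their values were seen. Some of these genes are not reported here. Members and lists were chosen with earlier results of these data known. The most alike pair of libraries differed beyond counting noise (chi-square 1.97 per degree of freedom), so none was counted as a copy.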

Additional observations from a re-analysis of the deposited data

Results flagged for a closer look

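Within a diet of 5 libraries, a library was listed when its gap to the nearest other exceeded Dixon's limit. This was applied to 302 groups, of which chance alone lists about 1 in 20, and 24 values were listed, 11 of them in standard-diet replicate 4. That number follows in part from the choice of genes, since some were named because they moved most without that library or were highest in it.

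In standard-diet replicate 4 the gap was upward for Slc17a7 (325 CPM, next 18.1), Nptxr (544, next 184), Olfm1 (401, next 182), Nrn1 (58.0, next 8.16), Tbr1 (55.8, next 8.63), Ntng1 (43.7, next 28.3), Cck (37.1, next 10.4), Scube1 (34.1, next 8.63), Rprm (32.3, next 6.27) and Rasgef1c (16.1, next 6.25). The mean of the cortical marker list there was 1.43 on a log2 scale, next -0.12.

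In the other standard-diet libraries the values listed were Selenom in replicate 3 (78.0 CPM), Cox5b in replicate 3 (191 CPM), Ndufb8 in replicate 5 (184 CPM) and the iron exporter gene Slc40a1 in replicate 5 (6.27 CPM), all above the others, and Gapdh in replicate 2 (668 CPM, below the others). In low-iron replicate 1 they were Selenom (53.8 CPM) and Sema7a (63.1 CPM), both below the others. In low-iron replicate 2 the cortical marker mean (-0.0097) was above the others. In low-iron replicate 3 Dcx (71.4 CPM) and Alas2 (2.27 CPM) were below the others. In low-iron replicate 4 the transferrin gene Tf (791 CPM) and Htr1a (3.65 CPM) were above the others. In low-iron replicate 5 the transferrin receptor gene Tfrc was high at 225 CPM.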

How the results depend on the processing

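With edgeR no gene passed an adjusted p of 0.05 under any setting run, and the lower direction of Reln held in all of them. DESeq2 called 1 gene, Reln, at -0.92. When a library was left out, DESeq2 called 1 gene (Reln) without low-iron replicate 2 (-1.01) or 4 (-1.01) and without standard-diet replicate 1 (-0.95), 4 (-0.77) or 5 (-0.97). It called 2 without low-iron replicate 3 (Reln at -0.88, Rpl13a) and 3 without standard-diet replicate 2 (Reln at -1.01, Cnr1, Smyd2), and 0 without low-iron replicate 1, low-iron replicate 5 or standard-diet replicate 3. Genes at an unadjusted p under 0.05 numbered 454 with all libraries, 928 with depth as a covariate, and 351 (standard-diet replicate 3 left out) to 842 (standard-diet replicate 2 left out). Genes whose diets did not overlap numbered 102, and 157 to 264 with a library left out, when fewer values have to be separated. Tfrc turned from 0.18 to -0.0034 with depth as a covariate. With a library left out, Alas2 ranged from -0.0083 to 0.21, Fth1 from -0.065 to 0.022, Ppp1r1b from -0.015 to 0.23, Pts from -0.12 to 0.054 and Slc40a1 from -0.21 to 0.035. The cause of these changes was not tested.

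Of 57 list medians, 0 changed sign under DESeq2 or its size factors, 7 did with depth as a covariate, 4 with cortical markers as a covariate and 5 without standard-diet replicate 4. In all 19 settings 37 kept their sign. With the replicate block, 463 genes had an unadjusted p under 0.05, 0 were called and Reln stood at -0.91. Same-numbered libraries did not deviate together (correlations -0.250 to 0.194), so the numbers were not taken as pairs. Depth limits genes of a few CPM: a count of 0 allows up to 0.339 to 0.691 CPM.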
